A study of Mus musculus with 3 samples.

Results

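The DNA replication and S phase genes are 53 named mouse genes that load, start, run and feed chromosome copying. They were chosen by name from a list, by their known roles, with earlier results of these data known. All 53 of them were found by symbol among the 55536 genes of the tables. They encode the origin recognition and licensing factors, the MCM2-7 helicase and its activators, the replicative polymerases, the sliding clamp and its loaders, the single-strand binding complex, lagging strand enzymes, nucleotide-making enzymes, histone and chromatin factors, and G1/S regulators.

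The RNA came from activated regulatory T cells, CD4 T cells that restrain immune responses under the transcription factor Foxp3, taken from a male mouse aged 4 months. The strain was Foxp3CreERT2 x Rosa26YFP, in which an inducible Cre recombinase is expressed from Foxp3 and a fluorescent reporter sits at Rosa26. The labels trace the cells to a bone marrow hematopoietic origin, with the sorting gate not given in the sources used here. PolyA-selected RNA was sequenced in 3 libraries, which the labels call technical replicates 1, 2 and 3 of 1 biological replicate, so all of them form 1 group without a control.

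DNA replication begins when the origin recognition complex, Cdc6 and Cdt1 place MCM2-7 rings on DNA in G1, a step known as licensing. Kinases then recruit Cdc45 and GINS to each ring, which turns it into an active helicase, and polymerases copy the strands behind it. Most of these genes are textbook targets of the E2F transcription factors, and T cells switch them on when they leave quiescence after activation.

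Gene-assigned fragments numbered 10981924 in replicate 1, 9700630 in replicate 2 and 6667391 in replicate 3, and values for the libraries are given in this order throughout. The labelled cell type was checked on its markers. Foxp3 had 29.5, 28.7 and 49.8 TPM (a transcript level per length, scaled to a fixed sum in each library) and Cd4 had 314, 421 and 244 TPM. Of the other regulatory T cell markers, Ctla4 had 190, 250 and 612 TPM and Ikzf2 had 358, 441 and 268 TPM. Tnfrsf18 had 663, 587 and 368 TPM, and Il2ra had 239, 272 and 236.5 TPM. Foxp3 and Ctla4 were thus highest in replicate 3, whereas Ikzf2, Tnfrsf18 and Il2ra were lowest there. The summed level of 5 erythroid markers was 452, 5.29 and 16.7 TPM, that of 5 plasma cell markers was 108, 69.7 and 172 TPM, and that of 5 B cell markers was 102, 67.4 and 83.9 TPM. The 7 T cell markers summed to 11900, 11340 and 7840 TPM, with replicate 3 lowest for 7 of 7. Of 5 immature thymocyte markers, Rag1 and Rag2 were listed at 0 in every library. Ptcra had 0, 0.12 and 0 TPM, Dntt had 0.63, 0.43 and 0.51 TPM, and Cd1d1 had 74.9, 97.2 and 84.4 TPM. The libraries differed by far more than sampling noise (chi-square per degree of freedom 11.4 for replicates 1 and 2, 30.7 for 1 and 3, and 30.3 for 2 and 3). The SDs and p-values below measure the spread between these libraries, which may be technical. In bulk RNA, fewer cycling cells and less RNA per cycling cell cannot be told apart.

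All 53 genes were detected at 1 TPM or more in every library. Together they took 37720, 40375 and 24968 fragments, which is 3435, 4162 and 3745 CPM, a count scaled to library depth. Their median level, as log2(TPM + 1), was 4.88, 5.15 and 5.12, against 3.89, 4.01 and 3.93 for all genes averaging 10 or more counts. The difference averaged 1.11 ± 0.10 on the log2 scale (SD, n = 3), and it was positive in each library.

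The most abundant member by mean TPM was Rpa1, at 206, 262 and 175 TPM. It encodes the large subunit of the single-strand binding complex RPA (mm10 chromosome 11, 75298166 to 75348324). Pcna, the sliding clamp that tethers polymerases to DNA (chromosome 2, 132249162 to 132253314), had 156, 159 and 149 TPM. Slbp, which binds the stem-loop of histone messages and is needed for histone supply in S phase, had 143, 163 and 153 TPM. These genes, with Rrm2, Mcm6, Tyms and Rfc2, were the 7 members with a mean above 100 TPM. The ranges of Rpa1 and Pcna did not overlap, whereas those of Pcna, Slbp and Rrm2 did. The first place depended on what was counted. With protein-coding transcripts alone, Rrm2 averaged 146.7 TPM, Rpa1 143.2 and Pcna 141.2, and the ranges of Rpa1 and Pcna overlapped. In an older gene count divided by coding bases and scaled like TPM, Rrm2 averaged 254.9 and Rpa1 252.2.

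The lowest member was Chaf1a, the large subunit of the histone chaperone CAF-1 (chromosome 17, 56040439 to 56072289), between 1.22 and 1.27 TPM in the 3 libraries. E2f1, an activating E2F, had 1.78, 2.02 and 1.72 TPM, and its range stood clear of both neighbours in the order by TPM. Its relative E2f2 had 27.1, 32.9 and 20.5 TPM, so E2f2 was the higher of the activating E2Fs in the list in each library. In older counts divided by coding bases, the ranges of E2f1 (2.879, 4.42 and 3.157) and Chaf1a (3.147, 2.645 and 3.235) overlapped. Orc1, an ATPase subunit of the origin recognition complex, had 2.89, 5.45 and 4.78 TPM. Dscc1, a subunit of an alternative clamp loader, had 5.89, 5.02 and 6.10 TPM. Of the 52 pairs of neighbours in the order of mean level, 48 had overlapping ranges, and the exceptions were Rpa1 over Pcna, Gmnn over Orc6, Orc1 over E2f1 and E2f1 over Chaf1a.

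**Figure D1:**
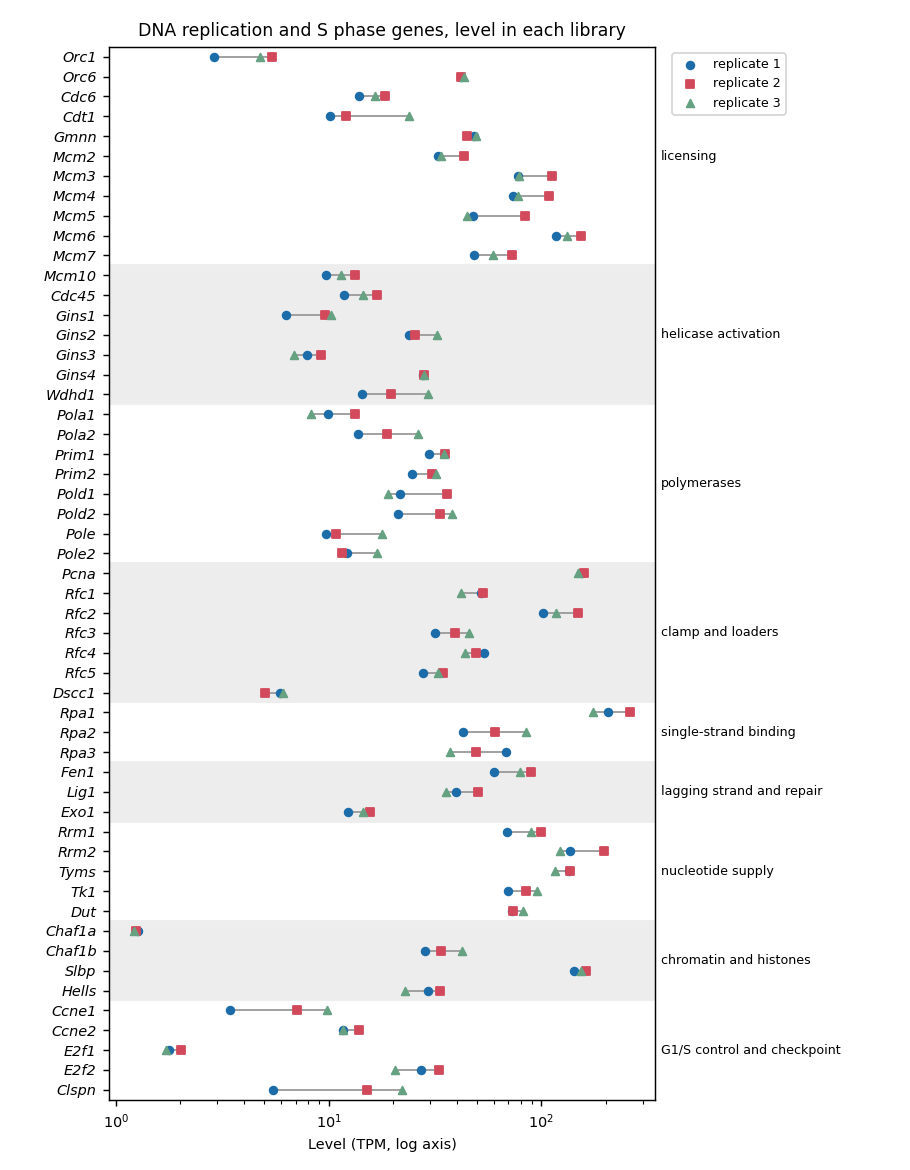
Level of each DNA replication and S phase gene in TPM on a log axis, grouped by role, with 1 symbol per library and a grey line from the lowest to the highest library. Rpa1 lies at the top of the scale, Chaf1a and E2f1 at the bottom, and the widest lines belong to genes such as Clspn, Ccne1 and Cdt1.

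The sequences of the promoters are shown because E2F words are the letters by which this gene set is best known. Promoters of 250 bases before to 50 bases after the start were taken from RefSeq (GRCm38.p6), which held an entry for 42 of the 53 genes. Mcm4, Gins1, Gins2, Gins4, Gmnn, Rfc2, Prim2, Pole, Ccne2, Exo1 and Dscc1 had none. The words TTTCCCGC, TTTGGCGC, TTTCGCGC and TTTGCCGC were searched on both strands. At least 1 of them stood in 16 of the 42 genes (38.1%), against 2.60% of all 27025 genes with a promoter and 3.32% of the protein-coding ones. The CCAAT box, searched as CCAAT, stood in 59.5% of the members and 41.1% of all genes. The CHR word TTTGAA, found in many G2/M promoters, stood in 14.3% of the members and 20.2% of all genes. A match is a run of letters and not a measured binding site, and base composition was not matched between the sets.
The windows below are 30 bases long, written 5′ to 3′ on the strand of the gene, with the E2F word in capitals; a word read on the other strand appears as its reverse complement.
Mcm3, word 19 bases after the start, chr1:20820275-20820304, minus strand: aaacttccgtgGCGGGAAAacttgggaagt
Mcm5, word 153 bases before the start, chr8:75109345-75109374, plus strand: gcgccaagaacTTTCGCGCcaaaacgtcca
Mcm6, word 110 bases before the start, chr1:128359797-128359826, minus strand: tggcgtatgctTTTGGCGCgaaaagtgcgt
Mcm7, word 165 bases before the start, chr5:138172030-138172059, minus strand: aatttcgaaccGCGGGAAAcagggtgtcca
Cdc6, word 138 bases before the start, chr11:98908002-98908031, plus strand: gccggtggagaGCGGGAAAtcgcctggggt
Cdt1, word 32 bases after the start, chr8:122568035-122568064, plus strand: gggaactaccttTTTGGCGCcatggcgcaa
Orc1, word 27 bases before the start, chr4:108579416-108579445, plus strand: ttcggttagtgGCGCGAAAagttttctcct
Pola1, word 138 bases before the start, chrX:93632275-93632304, minus strand: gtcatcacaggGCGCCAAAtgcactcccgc
E2f2, word 39 bases after the start, chr4:136172294-136172323, plus strand: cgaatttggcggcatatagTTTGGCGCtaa
Clspn, word 21 bases after the start, chr4:126556990-126557019, plus strand: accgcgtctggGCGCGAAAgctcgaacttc
The other genes with a word were Gins3, Rfc3, Pold1, Pole2, Lig1 and Hells. In Mcm5 and Mcm6 a second word overlapped the printed one on the opposite strand. Mcm3, Mcm6 and Mcm7 also held a separate word. It stood 38 bases after the start in Mcm3, 47 before it in Mcm6 and 16 after it in Mcm7. Of the 6 MCM2-7 genes, Mcm2 had a promoter entry without a word, and 4 held at least 1 word. Genes with a word included both very abundant members, such as Mcm6, and the scarce Orc1.

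Among the licensing genes, the 6 helicase subunits Mcm2 to Mcm7 ranged from 36.6 to 134 TPM in mean level. Mcm6 was the highest, at 117, 154 and 132 TPM, and Mcm2 was the lowest, at 32.8, 43.5 and 33.7 TPM. The other subunits lay between these.
Mcm3 had 77.5, 112 and 78.1 TPM, and Mcm4 had 73.3, 109 and 77.5 TPM. Mcm5 had 47.5, 83.4 and 44.9 TPM, and Mcm7 had 48.5, 72.6 and 59.4 TPM. All 6 subunits were highest in replicate 2.
The ring holds 1 copy of each subunit, and the messages were not present in equal amounts. The ratio of Mcm6 to Mcm2 was 3.57, 3.53 and 3.92 in the libraries (3.67 ± 0.211, SD, n = 3). Mcm6 was highest and Mcm2 lowest in every library in 4 quantifications of the same reads. The mean ratio was 3.66 in a second transcript quantification, 3.70 in an older gene count divided by coding bases, and 3.76 with protein-coding transcripts alone. Exons of Mcm7 share positions with Cops6 on the other strand, and with strand handling not given in the sources used here, reads of such pairs cannot be told apart.

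Cdc6 and Cdt1 were scarcer than any subunit of the ring in each library. Cdc6, the ATPase that helps load MCM2-7, had 13.9, 18.4 and 16.5 TPM. Cdt1, its loading partner, had 10.2, 12.1 and 23.8 TPM and was highest in replicate 3. Gmnn, which encodes geminin, the inhibitor of Cdt1, had 48.2, 44.9 and 49.5 TPM. Geminin message thus exceeded Cdt1 message in each library. Orc6 had 41.7, 42.1 and 43.1 TPM, and its exons overlap those of Vps35 on the other strand. Within the origin recognition complex, Orc1 stood at 0.0957 ± 0.0297 and Orc6 at 0.93 ± 0.0716 of the mean of its 6 subunits (SD, n = 3). Orc1 was the lowest subunit in every library in the main TPM, and the highest over the lowest subunit averaged 23.9 ± 7.77 (SD, n = 3). That ratio was 13.95 in older counts per coding base and 14.1 with protein-coding transcripts alone, with Orc1 lowest in both.

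The genes of helicase activation had a lower median than the licensing genes. Cdc45, which joins MCM2-7 and GINS in the active helicase, had 11.9, 16.9 and 14.6 TPM, and it overlaps Ufd1 on the other strand. Mcm10, needed to start unwinding, had 9.69, 13.3 and 11.4 TPM. Wdhd1, which links the helicase to polymerase alpha, had 14.3, 19.6 and 29.5 TPM. Only the last of these was highest in replicate 3.
The 4 GINS subunits formed 2 pairs. Gins4 had 27.9, 28.1 and 28.2 TPM, and Gins2 had 23.8, 25.5 and 32.2 TPM. Gins1 had 6.30, 9.66 and 10.3 TPM, and Gins3 had 7.93, 9.22 and 6.85 TPM. The higher pair did not overlap the lower pair in any library. The place of Gins2 differed with what was counted. Protein-coding transcripts gave 27.9% ± 4.32 of its TPM (SD, n = 3), or 7.49 TPM, next to 7.92 TPM for Gins1 and 7.99 TPM for Gins3. By fragments, retained-intron transcripts took only 15.5%, 29.3% and 25.7% of Gins2. In older counts per coding base, scaled like TPM, Gins2 stood at 44.4, above 15.1 for Gins1 and 12.1 for Gins3.

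Polymerase alpha-primase makes the primers on both strands. Its primase subunit Prim1 had 29.7, 35.2 and 35.0 TPM, and Prim2 had 24.7, 30.7 and 32.1 TPM. The catalytic subunit Pola1 had 9.89, 13.3 and 8.31 TPM, and its partner Pola2 had 13.8, 18.8 and 26.3 TPM. Both primase subunits exceeded both polymerase subunits in each library. In the second quantification the ratio of highest to lowest was 1.82, against 3.29 here.
Polymerase delta copies the lagging strand. Its catalytic subunit Pold1 had 21.7, 36.0 and 19.1 TPM, and Pold2 had 21.1, 33.3 and 38.0 TPM. The small subunit Pold4, no member of the list, was the highest of the complex at 119, 123 and 105 TPM.
Polymerase epsilon copies the leading strand. Its catalytic subunit Pole had 9.72, 10.8 and 17.9 TPM, and Pole2 had 12.2, 11.6 and 16.9 TPM. Both lay under the histone-fold subunits Pole3, at 24.8, 27.2 and 35.7 TPM, and Pole4, at 53.3, 42.4 and 33.8 TPM. In each of the 3 polymerases, the catalytic subunit named above was below the mean of its complex. It stood at 0.459 ± 0.116 for Pola1, 0.473 ± 0.119 for Pold1 and 0.515 ± 0.153 for Pole (SD, n = 3 each). This was not particular to these subunits, since Pola2 (0.836), Pold2 (0.578), Pold3 (0.770) and Pole2 (0.547) were also below it. Prim1 (1.445), Prim2 (1.26), Pold4 (2.18), Pole3 (1.18) and Pole4 (1.76) were above it.

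The clamp loader RFC opens and closes PCNA around DNA. Its large subunit Rfc1 had 51.8, 53.4 and 42.0 TPM. The small subunit Rfc2 had 102, 148 and 117 TPM, and Rfc3 had 31.6, 39.4 and 45.7 TPM. Rfc2 was thus the highest RFC subunit in each library.
Rfc4 had 53.5, 49.5 and 44.0 TPM, and it overlaps Eif4a2 on the other strand. Rfc5 had 27.9, 34.5 and 32.9 TPM. The ratio of highest to lowest subunit was 3.83 ± 0.407 (SD, n = 3).
The place of Rfc2 turned on which transcripts were counted. Protein-coding transcripts gave 5.15% ± 0.775 of its TPM and retained-intron transcripts gave 84.4% ± 3.90 (SD, n = 3 each). By fragments, retained-intron transcripts took 60.8%, 66.9% and 70.8% of the gene, since the transcripts concerned are short and TPM divides by length. With protein-coding transcripts alone, Rfc2 had 6.24 TPM and was the lowest RFC subunit, Rfc4 was the highest, and the ratio was 7.79. In the older counts per coding base, Rfc2 was again the highest subunit, and the ratio was 2.69.

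RPA coats single-stranded DNA as a complex of 3 subunits in equal number. Rpa2 had 42.8, 60.5 and 84.4 TPM, and Rpa3 had 67.9, 49.4 and 37.2 TPM, against the values of Rpa1 given above. The order of Rpa2 and Rpa3 was not the same in the libraries, with Rpa3 higher in replicate 1 and Rpa2 higher in the other two. Highest over lowest subunit averaged 4.94 ± 0.320 (SD, n = 3), and Rpa1 was the highest in each library. A retained-intron transcript of 716 bases, Rpa1-205, held 34.8%, 33.2% and 28.2% of Rpa1 TPM. By fragments, retained-intron transcripts took 9.42%, 8.92% and 7.30% of the gene. With protein-coding transcripts alone the ratio was 3.49 and Rpa1 was still the highest.

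The lagging strand enzymes were led by Fen1, the nuclease that removes primer flaps, at 60.2, 89.4 and 79.3 TPM. Fen1 shares exon positions with Tmem258 on the other strand. Lig1, the ligase that seals Okazaki fragments, had 39.8, 50.2 and 35.6 TPM. Exo1, an exonuclease of repair and replication, had 12.4, 15.6 and 14.5 TPM.

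Nucleotide supply was the role with the highest summed level after licensing. Rrm2, the regulatory subunit of ribonucleotide reductase whose level is known to rise in S phase, had 137, 196 and 123 TPM. Rrm1, the catalytic subunit, had 68.9, 99.9 and 89.4 TPM. Rrm2 exceeded Rrm1 by 1.98, 1.96 and 1.37 times.
Tyms, thymidylate synthase, had 134, 136 and 116 TPM. Tk1, the salvage enzyme thymidine kinase, had 69.6, 84.6 and 95.6 TPM, and Dut, which removes dUTP, had 72.9, 73.3 and 82.4 TPM. Protein-coding transcripts gave only 15.6% ± 4.86 of Tyms TPM (SD, n = 3), or 19.9 TPM, and transcripts classed for nonsense-mediated decay gave 48.1%. Tyms-205 and Tyms-207, of the latter class, are only 618 and 636 bases long, and TPM divides by length. In older counts per coding base, scaled like TPM, Tyms averaged 127.0, so its place turned on what was counted.

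Histone and chromatin factors spanned the whole scale. Slbp stood near the top, Chaf1b, the middle subunit of CAF-1, had 28.4, 33.8 and 42.6 TPM, and Chaf1a stood at the bottom. Chaf1a had 63.9, 49.8 and 34.1 expected counts, so its low place rests on few fragments. Its exons overlap Ubxn6 on the other strand, and its posterior SD reached 8.87% of its count in replicate 3, the highest share of any member in any library. Rbbp4, the small CAF-1 subunit that other chromatin complexes also use and no member of the list, had 242, 245 and 244 TPM. Rbbp4 exceeded Chaf1a 196-fold (± 4.71, SD, n = 3), or 100.3-fold with protein-coding transcripts alone. Hells, a chromatin remodeller, had 29.4, 33.3 and 22.9 TPM.

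G1/S control genes included the cyclins that switch on the S phase kinase. Ccne2 had 11.7, 13.9 and 11.7 TPM, and Ccne1 had 3.44, 7.10 and 9.80 TPM. Clspn, the claspin adaptor of the replication checkpoint, had 5.47, 15.2 and 22.2 TPM. Ccne1 and Clspn were lowest in replicate 1 and highest in replicate 3.

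**Figure D2:**
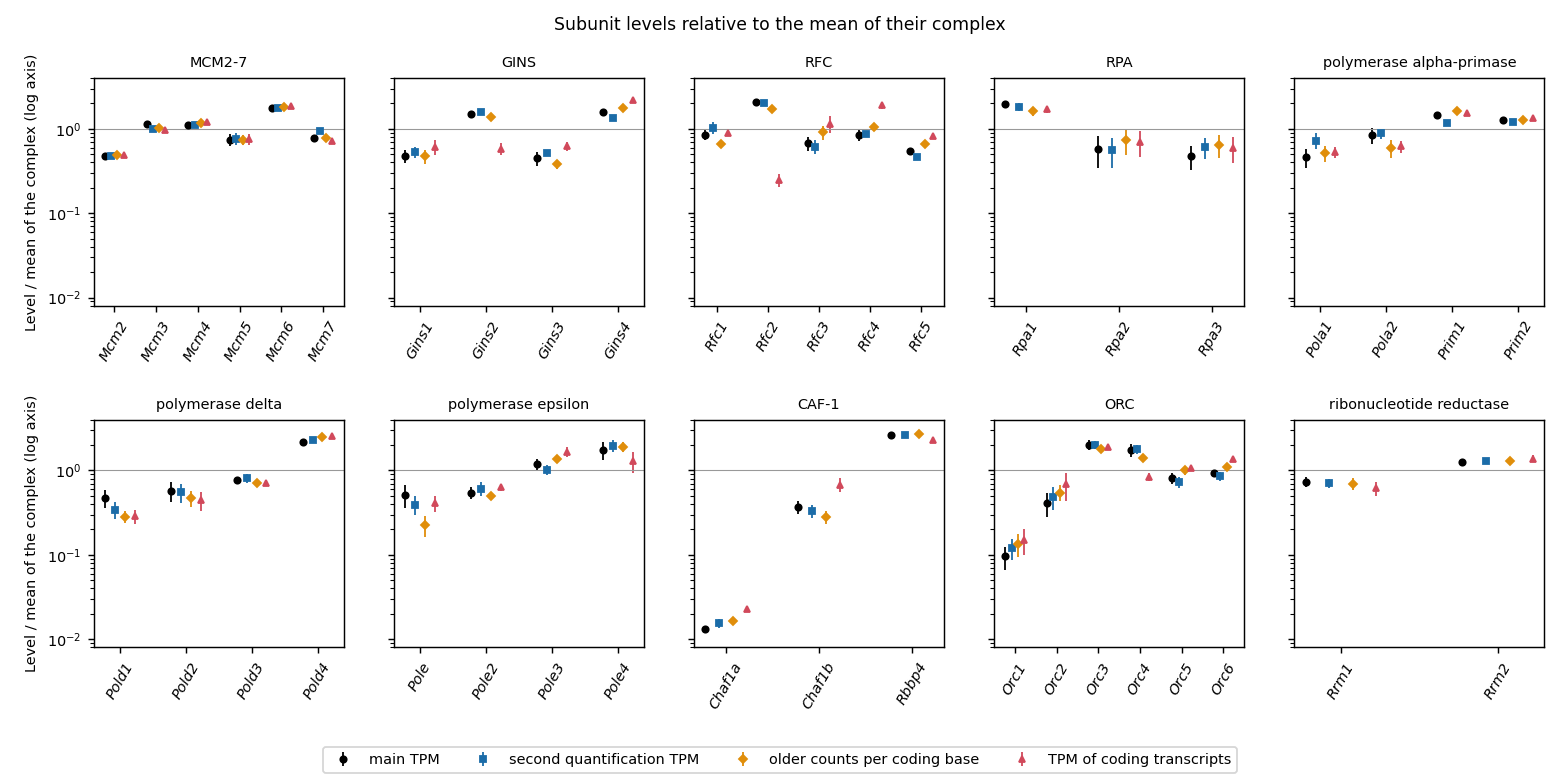
Level of each subunit divided by the mean of its complex within a library, on a log axis, for 10 complexes and 4 quantifications. Symbols are means and bars are SDs over the 3 libraries. Mcm6 is highest and Mcm2 lowest of MCM2-7 by every symbol, whereas Rfc2 is far lower when only protein-coding transcripts are counted. Pold3, Pold4, Pole3, Pole4, Rbbp4 and Orc2 to Orc5 are no members of the list and are shown for their complexes.

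Transcript classes were then compared over the list. The dominant transcript was protein-coding in 48 genes, a retained-intron transcript in 4 and of another class in 1. It was the same transcript in every library for 44 genes, and the same in both transcript quantifications for 47. It held at least 90% of the gene in 15 genes and under 50% in 9, with a median of 78.1%. Protein-coding transcripts held under 50% of TPM in 5 genes, Rfc2, Tyms, Gins2, Mcm10 and Rfc1, while the median over the 53 genes was 89.96%. In 15 genes retained-intron transcripts held over 20% of TPM. These shares weigh short transcripts up, since TPM divides by length: for Rfc1, retained-intron transcripts held 54.2% of TPM but 8.68%, 9.79% and 8.19% of fragments. Over the 41 members with such a transcript the median share was 12.7%, 11.6% and 16.9% of TPM, against 11.8%, 13.3% and 15.7% for 6609 protein-coding genes. Replicate 3 had the highest share in 22 of the 41 members (53.7%) and in 49.9% of those genes.

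The exon-intron boundaries that the abundant retained-intron transcripts run across are shown for 4 genes, since these transcripts moved the level of the gene. Each is 30 bases from GENCODE release M21 on mm10, read on the strand of the gene, with the exon in capitals and the retained start of the intron in lower case.
Rpa1-205, intron 8 of Rpa1-201, at chr11:75316090-75316119, minus strand: CCCGTACCAGTCCAAgtgagttgttgctca
Rfc2-205, intron 6 of Rfc2-201, at chr5:134591205-134591234, plus strand: CAGACAAAATCATAGgtgagcgggcagcct
Tyms-202, intron 4 of Tyms-201, at chr5:30064070-30064099, minus strand: CCTGGAACCCAAAAGgtggacagcatccca
Rfc1-205, intron 4 of Rfc1-206, at chr5:65311026-65311055, minus strand: ACGTCTCTGAGACAGgtaaggtatcgaatg
Each of these transcripts is annotated into the start of its intron, and none has an exon that spans the whole intron. Rfc2-205 had 24.6, 39.4 and 33.6 TPM, and Rfc2-204, a retained-intron transcript of 831 bases, had 52.0, 74.4 and 59.5 TPM. The coding transcript Rfc2-201 had 6.08, 7.45 and 5.20 TPM. Tyms-202 had 28.2, 27.9 and 26.1 TPM and Rfc1-205 had 28.4, 29.1 and 19.98 TPM. Estimates for short transcripts that share exons with longer ones are a split of the same reads.

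**Figure D3:**
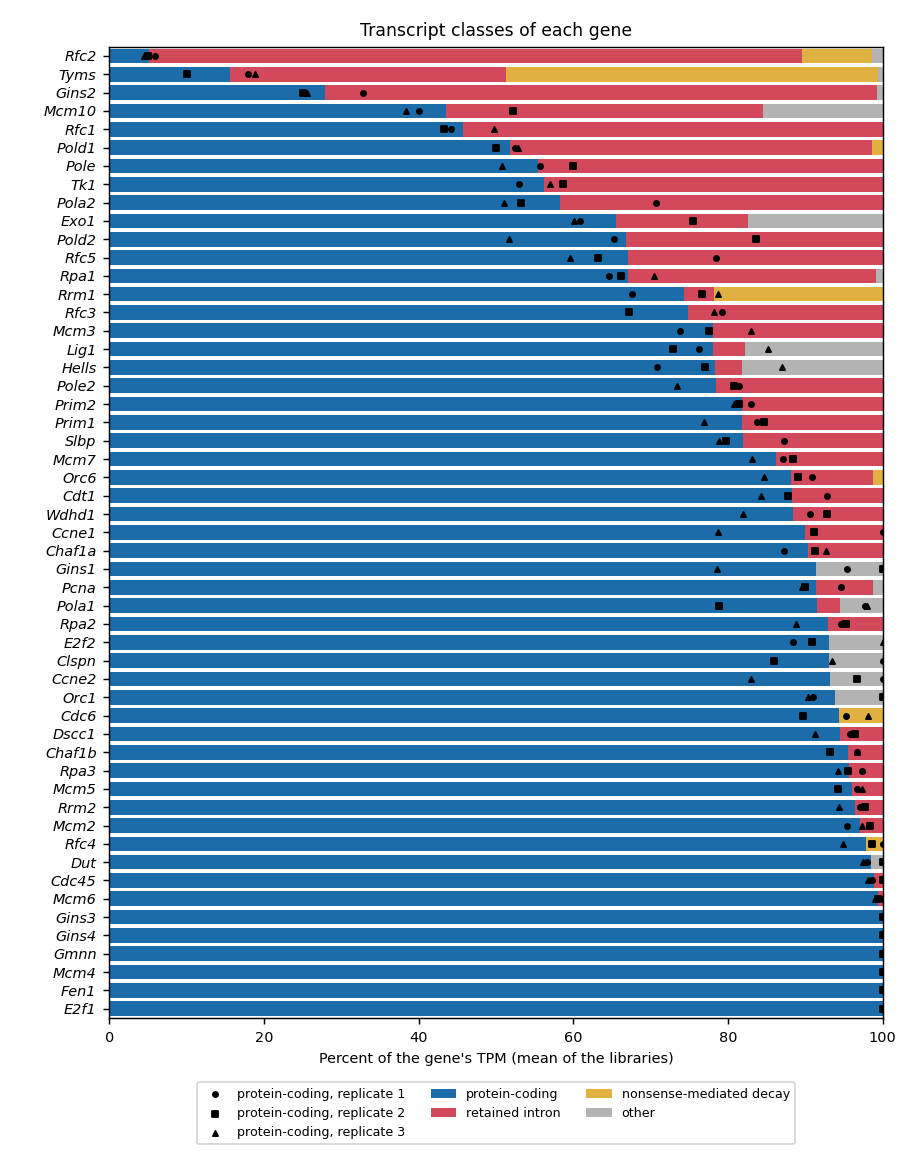
Share of each gene's TPM by transcript class, in percent, as the mean of the 3 libraries (bars), with the protein-coding share of each library as black symbols. Genes run from the lowest protein-coding share (Rfc2, 5.15%) downwards to those with protein-coding transcripts alone, such as Gins4 and Mcm4.

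Differences between libraries were tested on expected counts scaled by TMM, a factor that corrects for library composition, with a chi-square test per gene and Benjamini-Hochberg adjustment over 12997 genes. At an adjusted p below 0.05, 39 of the 53 genes varied, against 65.3% of all genes tested. Of the 53 genes, 12 passed this threshold with a highest scaled count over 1.5 times the lowest, against 35% of all genes tested. The median highest-over-lowest ratio was 1.35 in the list and 1.44 in all genes. The chi-square test holds counting error alone. With the spread that edgeR estimated from the same libraries added, 0 of 53 genes passed, against 1.31% of all genes. Cdt1 and Pola2 were the 2 members under 0.05 before adjustment, against 715 of the 12997 genes. Their Benjamini-Hochberg adjusted p from the chi-square test with this spread was 0.343 and 0.616.

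The direction of the deviations was uneven. Of the 53 members, 24 were highest in replicate 2, 22 in replicate 3 and 7 in replicate 1, against 28.2%, 40.6% and 31.2% of all genes. Replicate 1 was the lowest library for 27 members, replicate 3 for 18 and replicate 2 for 8, against 30.4%, 40.7% and 28.9% of all genes. Of the 53 members, 22 both passed the chi-square threshold and were highest in replicate 2, against 17.8% of all genes tested. The same count was 14 of 53 for replicate 3 (27.8% of all genes tested) and 3 of 53 for replicate 1 (19.8%). The median deviation of the members from the mean of the libraries was -0.13, 0.03 and 0.05 on the log2 scale in replicates 1, 2 and 3, and that of all genes was 0.01, 0.00 and 0.01. The sign in replicate 3 turned to -0.04 when replicate 1 was left out. Erythroid markers were highest in replicate 1, as given above, and their part in the lower levels there was not tested.

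Scaled counts of the MCM2-7 genes peaked in replicate 2. All 6 passed the chi-square test and were highest there, with ratios of highest to lowest library of 1.19 for Mcm6 to 1.65 for Mcm5. Mcm5 had scaled counts of 96.5, 147 and 89.2 CPM (adjusted p = 1.19e-34, chi-square test with Benjamini-Hochberg adjustment), a ratio of 1.65 with a 95% binomial interval from 1.5 to 1.82 that covers counting error only. Rrm2, Fen1, Lig1 and Exo1 were also highest in replicate 2 and passed the test. Orc1 (6.27, 11.6 and 10.2 CPM) and Pold2 (18.6, 32.2 and 28.6 CPM) were lowest in replicate 1, each by over 1.5 times against either other library. Mcm10 (15.8, 24.5 and 20.8 CPM) was also lowest there, and replicate 2 over replicate 1 was 1.55.

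Another set was highest in replicate 3. Cdt1 had 16.8, 17.5 and 37.7 CPM, a ratio of 2.25 (95% binomial interval 1.85 to 2.74), and Pola2 had 20.4, 25.6 and 45.2 CPM, a ratio of 2.22 (1.86 to 2.65). Ccne1 had 5.16, 9.08 and 12.3 CPM, a ratio of 2.38 (1.67 to 3.40). Replicates 1 and 2 lay close together for Cdt1 and further apart for Ccne1.
Rpa2 had 55.6, 70.3 and 103 CPM, Pole had 22.3, 29.4 and 39.8 CPM, Pole2 had 13.5, 11.7 and 18.1 CPM, and Clspn had 14.3, 18.6 and 23.4 CPM. All 4 passed the chi-square test with ratios of 1.54 to 1.85. Rpa3 went the other way, with 27.6, 18.5 and 15.3 CPM and its highest value in replicate 1 (ratio 1.81, interval 1.44 to 2.28). Subunits of RPA were thus highest in 3 different libraries, with Rpa1 highest in replicate 2.

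Some members varied little at this depth. Slbp had 187, 188 and 189 CPM, and its ratio of highest to lowest had a 95% interval of 0.941 to 1.08. Rfc5 had 45.8, 46.6 and 47.6 CPM, a ratio of 1.04 (0.900 to 1.20). Pcna passed the test with a ratio of only 1.10 (1.03 to 1.18), from 167, 152 and 155 CPM. A low ratio also came with few fragments, as in E2f1, whose interval ran from 0.631 to 1.88. Of the 16 genes with an E2F word, 10 were highest in replicate 2, 4 in replicate 3 and 2 in replicate 1, and of the 26 with a promoter entry and no word, 10, 11 and 5 were.

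**Figure D4:**
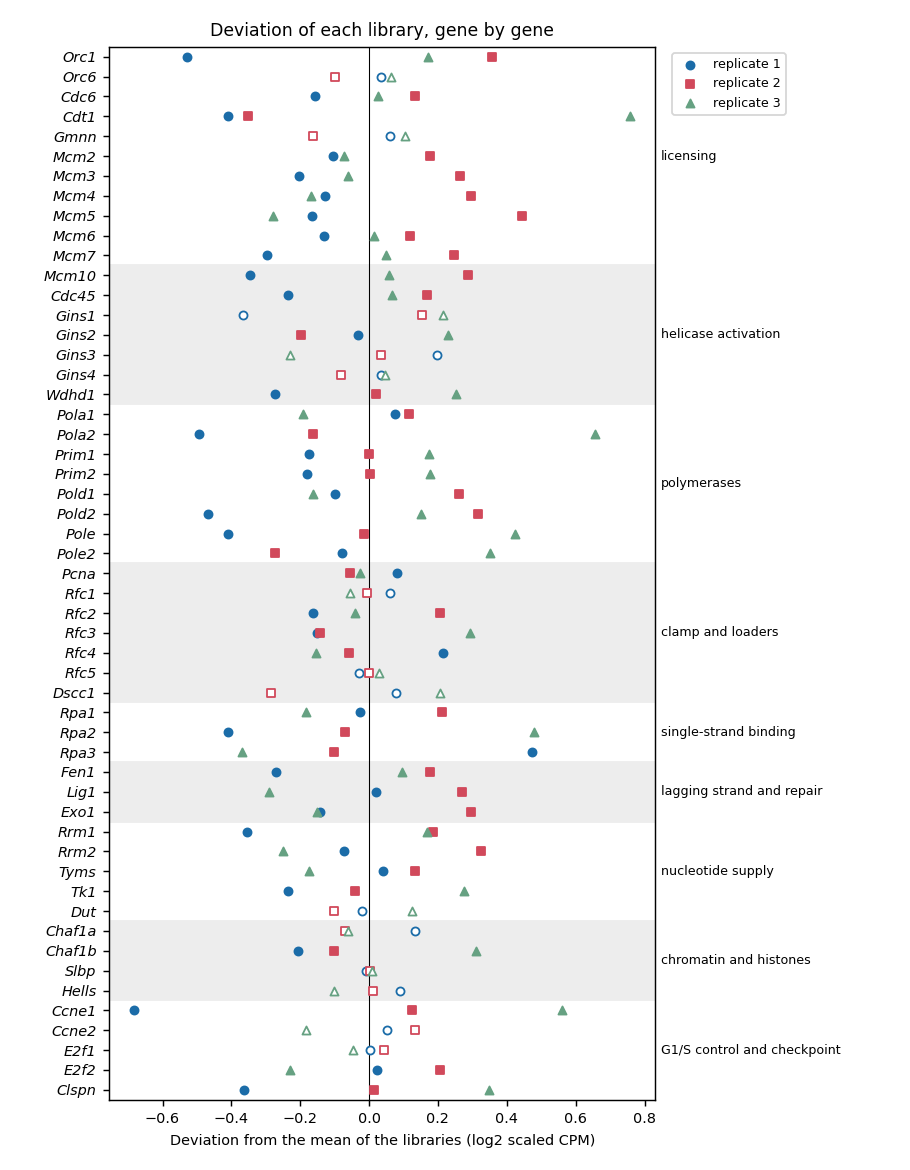
Deviation of each library from the mean of the libraries for each gene, in log2 scaled CPM, grouped by role. Filled symbols mark the 39 genes past the chi-square threshold and open symbols the others. Replicate 2 lies on the right for all of Mcm2 to Mcm7, and replicate 3 lies far right for Cdt1, Pola2 and Ccne1.

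TPM and counts did not always give the same range. The TPM of 16 members ranged over 1.5 times between libraries, and in 5 of the 53, Clspn, Wdhd1, Pold1, Pola1 and Hells, the TPM ratio exceeded the count ratio most. Clspn TPM differed 4.07-fold while its scaled counts differed 1.64-fold. Its short transcript Clspn-207, of 608 bases, had 2.09, 9.05 and 16.7 TPM, and the full-length Clspn-201, of 5027 bases, had 3.39, 3.97 and 4.05 TPM. The full-length transcript therefore differed little, and the short one carried the range. For E2f1 the split between transcripts differed: E2f1-201 held 92.7%, 19.4% and 0% of the gene. In the second quantification, E2f1-201 held 86.7%, 78.3% and 100.0%, so the same split was not found there.

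Other genes of replication were taken from a list of 49 that were no members. Their median level was 4.78, 5.16 and 5.12 as log2(TPM + 1), close to that of the members, and 37 of 49 varied by the chi-square test (65.3% of all genes). The highest were Samhd1, which degrades dNTPs, at 511 ± 83.0 TPM, Rbbp4, Impdh2 and Rbbp7, and the lowest were Recql4 (0.990 ± 0.276 TPM), Ticrr, Mcm8 and Mcm9 (SD, n = 3 each). Dbf4, the activator of the Cdc7 kinase that fires origins, had 10.9, 15.7 and 28.8 TPM, and Topbp1, which helps load Cdc45, had 23.9, 23.8 and 41.8 TPM. Both were highest in replicate 3, as Cdt1 was. Dnmt1, the maintenance DNA methyltransferase, had 41.4, 69.2 and 38.3 TPM, and Top2a had 94.8, 146 and 98.0 TPM, with replicate 2 highest as for the MCM2-7 genes.

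Of 20 G2/M genes, 18 varied (65.3% of all genes did), 13 were highest in replicate 2 (28.2% of all genes) and 16 were lowest in replicate 1 (30.4% of all genes). Birc5, Cenpa, Ccnb2 and Ube2c were the highest of them, and Cenpa had 90.2, 113 and 172 TPM. Among 25 G1/S regulators, 18 varied, a share near the 65.3% of all genes. Ccnd2, the D-type cyclin with the highest level, had 677, 688 and 425 TPM, while Ccnd1 averaged 0.910 ± 0.0819 TPM (SD, n = 3). Among 7 CDK inhibitors, Cdkn2d had 112, 132 and 157 TPM, and Cdkn2a, Cdkn2b and Cdkn1c each averaged under 1 TPM.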

How the data were processed

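Per the file headers and the deposited notes, the authors' main tables hold expected counts, TPM and isoform percent per library (mm10, gene models of release M21), from transcriptome alignments, with other columns (effective length, posterior SD). A second deposited transcript table holds estimated counts and TPM. An older deposited gene table (release M4) holds whole-number counts. Programs and strand handling: not given in the sources used here. M4 IDs were matched for 22195 of 22457 genes, and those counts were divided by coding bases, since their ratio to the main counts rose with the coding share of a gene; what they cover is an inference from the values.

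Levels are mean and SD of deposited TPM over 3 libraries, with a pseudocount of 1 for log2 values. Expected counts were rounded, filtered at a mean of 10, scaled by TMM (edgeR 4.0.16, R 4.3.3) and tested by chi-square. A prior run on simulated data held counting error alone. It therefore does not show how the test behaves at the larger spread of these libraries. DESeq2 1.42.0 gave alternative size factors. A count of 0 would allow up to 3 counts, or 0.273, 0.309 and 0.450 CPM in replicates 1, 2 and 3. Intervals (95%) cover counting error only. Of the members, 19 share exon positions with another gene, 14 of them with an expressed one. Any member could be named, and other genes by the 4 highest and 4 lowest means per list or a varying count over 1.5-fold. The members and lists were chosen with earlier results of these data known.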

Additional observations from a re-analysis of the deposited data

How the results depend on the processing

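No paired analysis was possible because the 3 libraries form 1 group. The list median of log2(TPM + 1), 5.05, was 4.31 in the second quantification, 5.56 in older counts per coding base and 4.61 with protein-coding transcripts alone, an alternative chosen after seeing the data; the median shift of all genes was -0.67, 0.34 and -0.17. The excess over all genes, 1.11, was 2.45 against all protein-coding genes above 0. The 39 varying genes (65.3% of all genes tested) became 0 with edgeR's trended dispersion (1.31% of all genes). With that dispersion, 2 members had an unadjusted chi-square p under 0.05, against 715 of 12997 genes. Leaving out replicate 1, 2 or 3 gave 26, 29 and 30 of 53 members, against 51.5%, 53.9% and 31.9% of all genes. Highest-over-lowest ratios in the second quantification were 4.37 for RFC, 3.95 for RPA, 1.82 for polymerase alpha-primase, 6.86 for polymerase delta and 174 for CAF-1. Older counts per coding base gave 2.69 for RFC, 2.97 for RPA, 9.07 for polymerase delta, 9.24 for polymerase epsilon, 165 for CAF-1 and 13.95 for ORC. Protein-coding transcripts gave 7.79 for RFC, 3.49 for RPA, 9.23 for polymerase delta, 100.3 for CAF-1, 14.1 for ORC and 2.33 for ribonucleotide reductase. The median dominant transcript share, 79.1% as the mean of library medians, was 68.0% in the second quantification. The cause of these shifts was not tested. MCM2-7 and GINS ratios moved by less than 1 SD in each alternative quantification. Leaving out 1 of the 3 libraries cannot move a mean by 1 SD of the same 3 values, so those runs could not decide this. For single genes, the level moved by over 1 SD in 45 of 53 with the second quantification. It did so for 41 in older counts per coding base and for 24 with protein-coding transcripts. Over the 53 genes the Spearman correlation with the main level was 0.981, 0.970 and 0.876, and these tables share the same reads. Depth limits E2f1, Chaf1a and Dscc1 most, the members with the fewest fragments.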

Other observations

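Processed copies of replication genes were looked at for shared reads. Pcna-ps2, a pseudogene of Pcna, was given 12.7, 8.73 and 1.73 expected counts in replicates 1, 2 and 3 in the main table, and 2.21, 0 and 0 in the second quantification. Pcna itself had 1816, 1491 and 1037 expected counts. Pcna-ps1 and Tyms-ps were listed at 0 in every library in both.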
